A study of Mus musculus with 24 samples.

Results

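The genes described here encode the enzymes that begin the removal of DNA methylation, Tet1, Tet2, Tet3 and Tdg, and proteins that bind methylated CpG, Mbd1, Mbd2, Mbd3, Mbd4 and Zbtb38. Members were taken by gene symbol: every probe set, a group of oligonucleotides that together measure a transcript, annotated to 1 of these 9 symbols and to no other. This gave 21 of the 34958 probe sets with a single symbol, for 8 of the 18194 genes so measured. They comprised 4 probe sets for Tet1, 2 for Tet2, 1 for Tet3, 5 for Mbd1, 2 for Mbd2, 1 for Mbd3, 3 for Mbd4 and 3 for Zbtb38. Tdg has 0 such probe sets, because its 3 probe sets are also annotated to 2 Tdg pseudogenes.

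Affymetrix expression arrays were used on cells that were sorted from marrow of 129ola mice at an age of 8 to 12 weeks. The groups were B cell progenitors (B progenitors below) of Dnmt1+/+ (wildtype) mice (2 arrays), myeloid progenitors (MP) of Dnmt1-/chip mice (3 arrays) and of wildtype mice (3 arrays), and haematopoietic stem cells (HSC) of Dnmt1-/chip mice (3 arrays) and of wildtype mice (2 arrays). Dnmt1-/chip mice pair a null with a partly functional allele of Dnmt1, the enzyme that copies methylation to the new DNA strand, and are called hypomorphs. The labels name no promoter or Cre that would limit the alleles to a cell type. Whether the arrays of 1 group stand for different mice is not stated. The Y-linked gene Eif2s3y, given below, was low on 1 array of every group but hypomorph HSC. The arrays of those groups therefore do not all carry the same RNA. Other arrays of a group may still share mice, and the p-values describe array-to-array spread, which may be partly technical.

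In the pathway these genes serve, a methyl group on cytosine next to guanine is written by Dnmt enzymes and read by proteins with a methyl-CpG binding domain or with zinc fingers such as those of Zbtb38. Readers recruit histone deacetylases and other repressors. Tet enzymes oxidise the methylated base, and Tdg then cuts out the oxidised forms so that base excision repair can put back an unmethylated cytosine. Tet2 is known in blood as a gene whose loss expands stem cells.

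Levels below are log2 intensities, on which a difference of 1 is a doubling. They compare arrays for 1 probe set and never 1 probe set with another. With 2 or 3 arrays a group, the arrays of 2 groups can fail to overlap by chance. How often they did so over all probe sets was not counted. A probe set was tested when at least 2 of the 13 arrays reached 4.64, the median of all values, which left 22122 probe sets and 19 of the 21 members. The Tet1 probe set 1419897_at (3.73 to 4.17 on all arrays) and the Zbtb38 probe set 1438269_at (3.37 to 4.37) were too dim to test. Each comparison comes from a single limma fit of all 13 arrays, with p adjusted by Benjamini and Hochberg over the 22122 probe sets, and a probe set is called where the adjusted p is under 0.05.

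Dnmt1 itself (1435122_x_at) was at 9.02, 8.48 and 9.31 in hypomorph HSC, against 11.80 and 11.58 in wildtype HSC. In hypomorph MP it was at 8.01, 8.24 and 8.17, against 11.41, 11.30 and 11.73 in wildtype MP, so both cell types followed their labels. The Y-linked Eif2s3y was low on hypomorph MP array 2 (2.87), wildtype MP array 3 (2.75), wildtype HSC array 2 (2.35) and B array 2 (2.47), and between 6.95 and 10.16 on the other 9 arrays, which include all 3 of hypomorph HSC. Xist was lowest on B array 1 (4.61) and between 8.13 and 12.86 elsewhere. The B lineage markers had a mean level of 11.28 in B progenitors and at most 5.11 on any HSC array, and the granulocyte-monocyte markers 12.18 in wildtype MP against 8.08 in wildtype HSC. Stem cell markers had a mean level of 8.51 in wildtype MP and 10.45 in wildtype HSC. These are sorted populations measured in bulk, in which fewer cells of a type and less RNA per cell cannot be told apart.

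The Zbtb38 gene carries the only member change called between the genotypes, so the sequences upstream of 2 of its annotated starts are printed here. RefSeq (GRCm38.p6) gave start sequences for 7 of the 9 genes, with 3 starts for Zbtb38. The first lies furthest upstream, at chr9:96731676-96731925, and the other printed window at chr9:96719851-96720100, both on the minus strand and each covering the 250 bases before the start. Capitals mark CG, the dinucleotide that Dnmt1 maintains and that these proteins read. It reads the same on both strands.
Zbtb38 upstream start: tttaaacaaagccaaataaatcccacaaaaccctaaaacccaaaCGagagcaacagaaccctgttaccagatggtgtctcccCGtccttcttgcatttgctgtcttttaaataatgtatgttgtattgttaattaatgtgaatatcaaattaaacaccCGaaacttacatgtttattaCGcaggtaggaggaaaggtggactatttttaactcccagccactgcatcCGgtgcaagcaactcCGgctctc
Zbtb38 inner start: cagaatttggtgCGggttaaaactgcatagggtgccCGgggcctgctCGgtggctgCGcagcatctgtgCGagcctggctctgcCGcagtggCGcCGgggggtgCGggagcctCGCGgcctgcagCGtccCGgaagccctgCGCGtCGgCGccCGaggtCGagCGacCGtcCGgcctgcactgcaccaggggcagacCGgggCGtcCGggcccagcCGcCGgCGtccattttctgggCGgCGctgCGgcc
The window of the upstream start holds 6 CG, and 50.4% of 32851 mouse windows of the same length hold at least as many. The inner window holds 31, a count reached by 5.19% of windows, and the third start, not printed, holds 23 (13.3%). Among the other members, Tet2 had 51 CG (0.067% of windows have as many), Mbd4 22, Tdg 19, Tet3 17, Tet1 15 and Mbd3 14. The median window had 6, and 92.1% had at least 1. Methylation was not measured in these samples, and which start the probe sets report was not tested.

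Between hypomorph and wildtype HSC, Zbtb38 rose at 1 of its 2 tested probe sets (1434687_at), and no other member probe set was called. The other Zbtb38 probe set, 1437650_at, differed by -0.05 (SE 0.23), and the call was lost in some of the fits described below. Dnmt1 was 6.75-fold lower in the same cells (limma adjusted p 5.9e-05). The Zbtb38 call is 1 of 19 member probe sets (5.26%), beside 8.76% of all probe sets tested. The 19 differences ran from -0.59 to 2.93 and were above 0 for 9 and below 0 for 10 probe sets. Their median was -0.05, beside -0.08 over all probe sets tested. In 10 of 19 the 95% interval of the difference lay within 1 log2 unit of 0 on both sides. The other 9 intervals reach past a difference of 1.

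In MP none of the 19 was called by limma, beside 0.452% of all probe sets, and 1 had an unadjusted p under 0.05. Dnmt1 was 10.1-fold lower there (limma adjusted p 2.33e-05). The differences ran from -2.07 to 0.45 with a median of -0.05, beside -0.02 over all probe sets. For 13 of 19 the 95% interval lay within 1 log2 unit of 0. With arrays weighted by their residual spread, 3 members were called in MP, but so were 6513 of all probe sets, against 100 without weights.

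**Figure D1:**
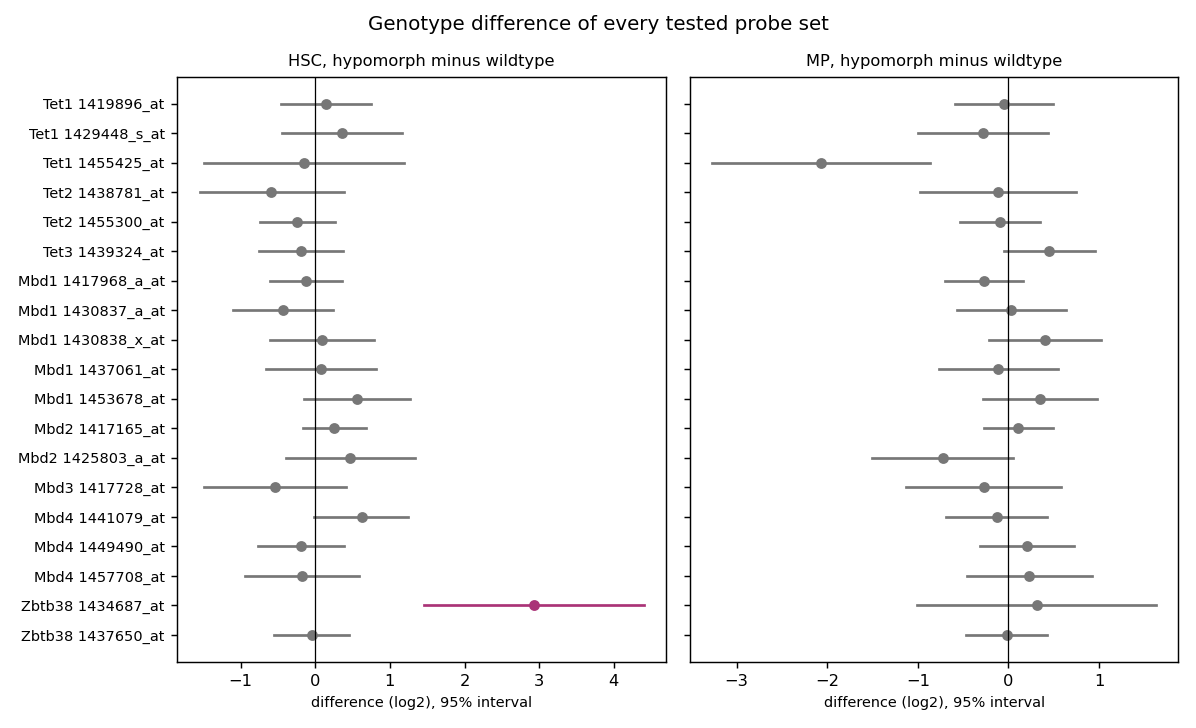
Difference between hypomorph and wildtype (log2) with its 95% interval for each of the 19 tested probe sets, in HSC on the left and in MP on the right. Purple is called and grey is not: Zbtb38 1434687_at in HSC (2.93) is the called one, and Tet1 1455425_at in MP (-2.07) lies furthest below 0.

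Among the erasers, the Tet genes, none of the 6 tested probe sets was called by limma in either genotype comparison, and 0 in HSC and 1 in MP had an unadjusted p under 0.05. The one with the largest difference was Tet1 1455425_at in MP. Tet1 is a methylcytosine dioxygenase. Its levels were 6.67, 4.38 and 6.59 in hypomorph MP, against 8.60, 6.86 and 8.40 in wildtype MP. Every hypomorph array lay below every wildtype array, and 1 array in each group lay well below the others. The difference was -2.07 (SE 0.56, 95% interval -3.27 to -0.87) with an adjusted p of 0.177 in limma. Without hypomorph MP array 2 it was -1.32, and with weighted arrays it was called (-2.25, adjusted p 0.00168). In HSC the same probe set differed by -0.15 (SE 0.62). The difference of the HSC and MP effects was 1.92 (SE 0.83, adjusted p 0.193).

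The other Tet1 probe sets differed less: in MP 1419896_at differed by -0.05 (SE 0.25) and 1429448_s_at by -0.28 (SE 0.33). Across the 13 arrays 1455425_at correlated with them at r = 0.05 and 0.07, while those 2 correlated with each other at 0.65. The 3 probe sets were hybridised with the same RNA.

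Tet2 differed by -0.59 (SE 0.45, 1438781_at) and -0.24 (SE 0.23, 1455300_at) in HSC and by -0.12 and -0.09 in MP, with adjusted p from 0.464 to 0.917. Its 1438781_at levels were 5.26 to 6.82 in hypomorph HSC and 6.28 and 7.45 in wildtype HSC, which overlap. At 1455300_at the HSC arrays did not overlap, though they came close: 5.95 to 6.34 in hypomorphs, against 6.36 on each wildtype array. Tet3, measured by 1439324_at close to the level below which probe sets were not tested, differed by -0.19 (SE 0.26) in HSC and 0.45 (SE 0.23, adjusted p 0.394) in MP. In MP the Tet3 arrays did not overlap: 4.68 to 4.73 in hypomorphs, against 3.98 to 4.51 in wildtype.

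**Figure D2:**
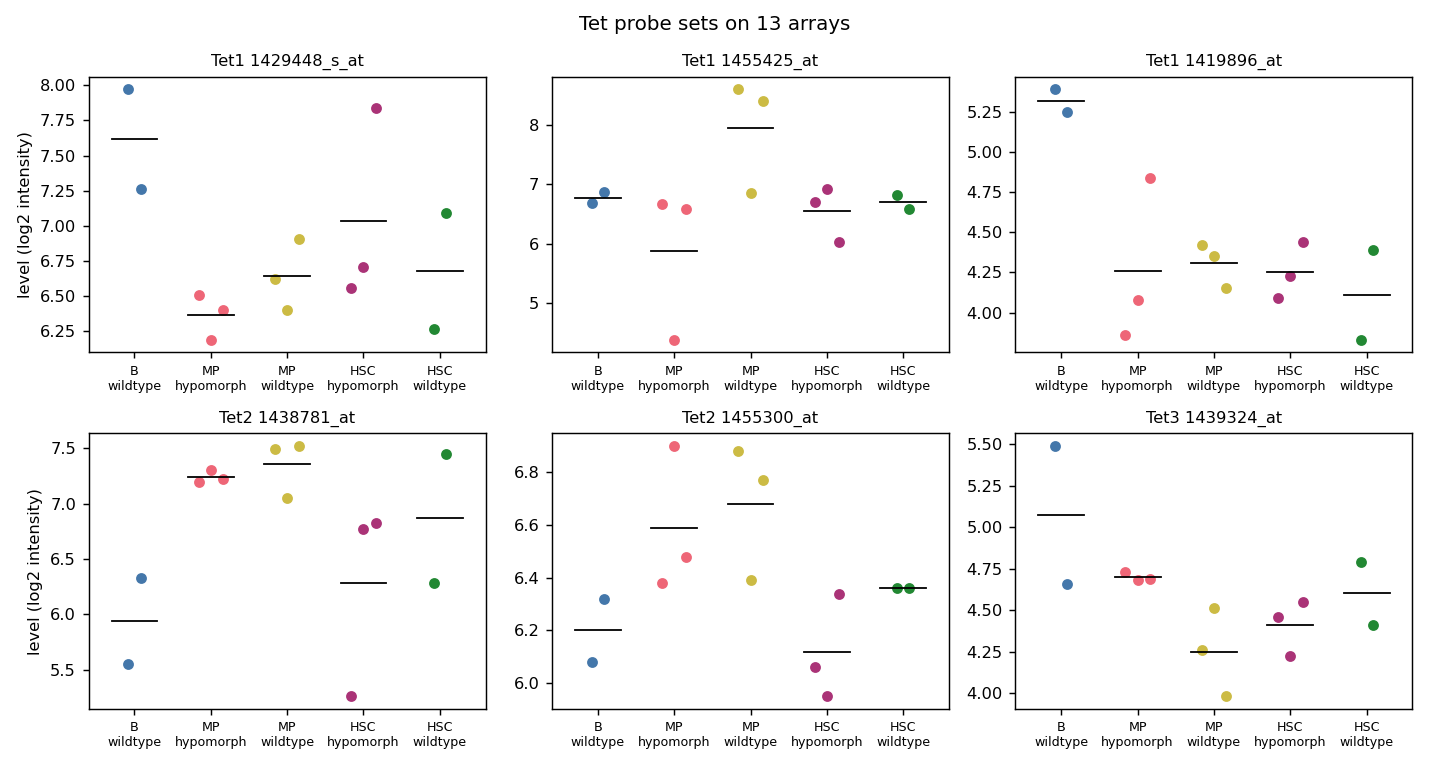
Level (log2 intensity) of the 6 tested Tet probe sets on each array, with a bar at the mean of each of the 5 groups. Tet1 1455425_at is lower on all 3 hypomorph MP arrays (4.38 to 6.67) than on the wildtype MP arrays (6.86 to 8.60), the other Tet1 panels show no such gap, and each panel has its own axis.

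The readers with a methyl-CpG binding domain had 11 tested probe sets, of which none was called by limma between genotypes in HSC or in MP, and none had an unadjusted p under 0.05 in either. Mbd1, a repressor that also binds unmethylated CpG through a zinc finger, differed by -0.43 to 0.56 over its 5 probe sets in HSC and by -0.27 to 0.40 in MP. At Mbd1 1453678_at the HSC arrays did not overlap, with 4.61 to 5.65 in hypomorphs, against 4.21 and 4.58 in wildtype. That difference was 0.56 (SE 0.33, limma adjusted p 0.324). Mbd3, a subunit of the NuRD repressor complex whose mammalian form binds methylated DNA weakly, differed by -0.54 (SE 0.44) in HSC and -0.27 (SE 0.39) in MP. Mbd4, a glycosylase that repairs mismatches left by deaminated methylcytosine, differed at 1449490_at by -0.19 in HSC and 0.20 in MP.

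Mbd2, the reader of a separate form of NuRD, differed by 0.25 (SE 0.20) in HSC and 0.11 (SE 0.18) in MP at 1417165_at. Its intervals there, -0.17 to 0.68 and -0.27 to 0.49, were among the narrowest of the members. The other probe set, 1425803_a_at, was at 4.35 to 4.70 in hypomorph MP, against 4.96 to 5.51 in wildtype MP, without overlap. That difference was -0.72 (SE 0.36, adjusted p 0.375), and in HSC it was 0.47 (SE 0.40). Hypomorph MP arrays 2 and 3 (4.53 and 4.35) lay below 4.64 at this probe set.

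Mbd4 1441079_at had levels of 5.77 to 6.38 in hypomorph HSC, against 5.26 and 5.64 in wildtype HSC. These arrays did not overlap, and the difference was 0.62 (SE 0.29, adjusted p 0.216). In MP it was -0.13 (SE 0.26). The other probe sets of Mbd4 differed by -0.19 and -0.18 in HSC.

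**Figure D3:**
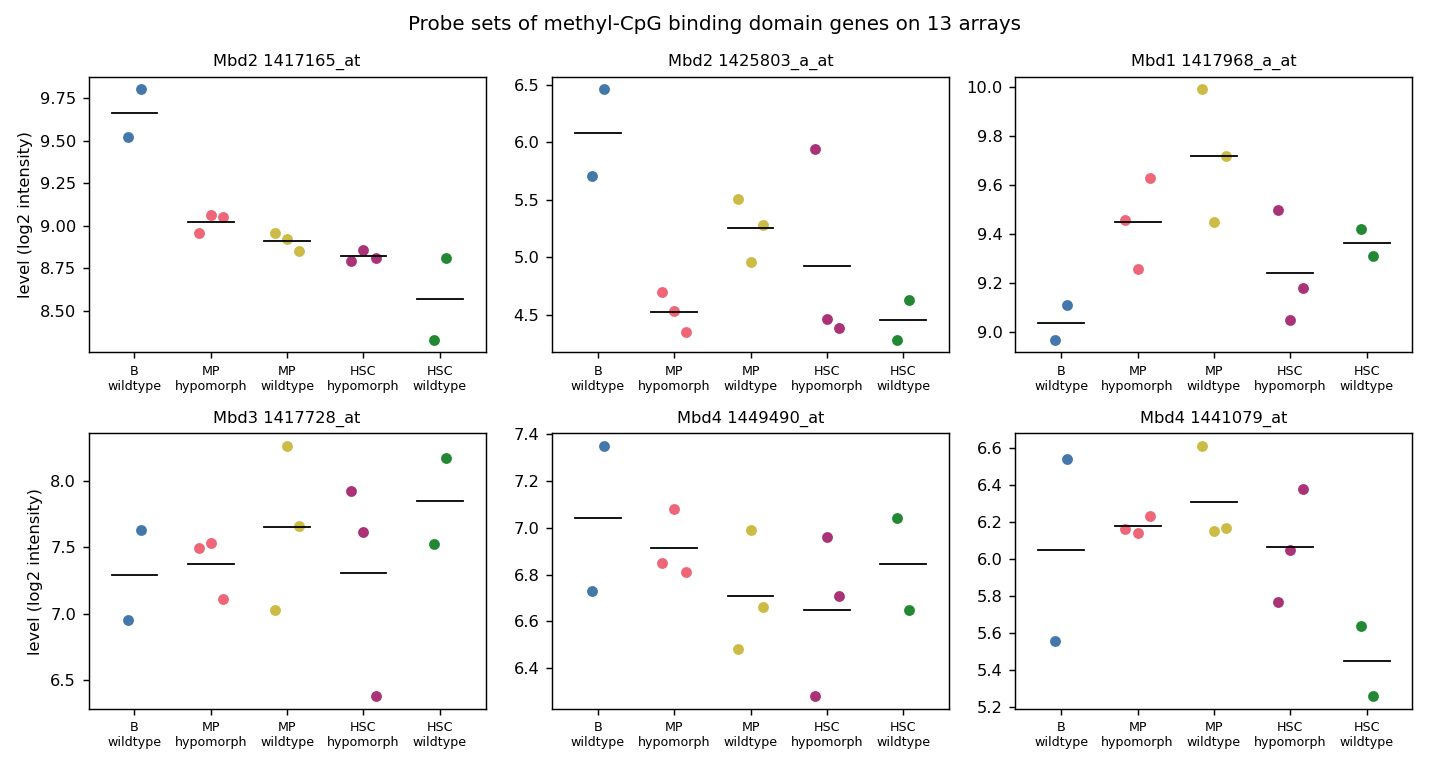
Level (log2 intensity) of 6 probe sets of Mbd1, Mbd2, Mbd3 and Mbd4 on each array, with a bar at each group mean. Both Mbd2 panels have their highest mean in B progenitors, with arrays apart from all others at 1417165_at (9.52 and 9.80) but not at 1425803_a_at, and Mbd4 1441079_at has its lowest mean in wildtype HSC, where B array 1 (5.56) lies between the arrays (5.26 and 5.64); each panel has its own axis.

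Zbtb38 is a zinc finger repressor that binds single methylated CpG. Its probe set 1434687_at was at 6.87, 8.73 and 9.29 in hypomorph HSC, against 6.56 and 4.18 in wildtype HSC. All 3 hypomorph arrays were above both wildtype arrays, but the lowest of the first lay close to the highest of the second, and both groups were widely spread (8.30 ± 1.27 in hypomorphs, n = 3, and 5.37 ± 1.68 in wildtype, n = 2, SD). The difference was 2.93 (SE 0.68, 95% interval 1.46 to 4.40, 7.61-fold), with an adjusted p of 0.0192 in limma. Without wildtype HSC array 2 it was 1.74 and not called (adjusted p 0.259). It was also not called without hypomorph HSC array 2 (2.71, adjusted p 0.0706) or when the 5 HSC arrays were fitted alone (2.93, adjusted p 0.187). Wildtype HSC array 2, which lay below 4.64 here, is also the HSC array with low Eif2s3y (2.35, against 6.95 to 9.31 on the other 4), and the part of this in the Zbtb38 difference was not tested.

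In MP the same Zbtb38 probe set was at 8.50, 8.08 and 8.32 in hypomorphs, against 8.10, 7.65 and 8.21 in wildtype. These ranges overlap, and the difference was 0.31 (SE 0.61, 95% interval -1.01 to 1.63, adjusted p 0.843). The effect in HSC exceeded that in MP by 2.62 (SE 0.92), which was not called (adjusted p 0.117). It was called without hypomorph HSC array 1 (3.33, adjusted p 0.0274) or wildtype HSC array 1 (3.81, adjusted p 0.0244). Over all members 0 of 19 differences of effects were called, beside 4.38% of all probe sets, and 3 had an unadjusted p under 0.05.

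The other tested Zbtb38 probe set, 1437650_at, was flat. It lay between 5.49 and 6.08 on all 13 arrays, and differed by -0.05 (SE 0.23, 95% interval -0.55 to 0.45) in HSC and -0.02 (SE 0.21) in MP. The probe sets correlated at -0.11 over the arrays. Averaging both gave a difference of 1.44 in HSC, which was called (adjusted p 0.0204). Because 1437650_at was flat, the average follows the other probe set, so this call says nothing on whether the probe sets agree.

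Of all other probe sets, Sod1 1459976_s_at (r = 0.977), Tbca 1437907_a_at (0.973) and Fkbp1a 1456196_x_at (0.963) had the pattern most like Zbtb38 1434687_at over the 13 arrays. Sod1 encodes a superoxide dismutase, Tbca a tubulin folding cofactor and Fkbp1a the protein that binds FK506. All 3 had their lowest level on wildtype HSC array 2, where Zbtb38 was lowest too: 12.42 for Sod1, 8.35 for Tbca and 9.89 for Fkbp1a. On wildtype HSC array 1 they were at 13.20, 10.52 and 11.45. Hypomorph HSC array 1 was slightly lower than that for all 3 (13.16, 10.49 and 11.26), so the genotypes overlap in HSC for these probe sets.

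Gene lists for proliferation and for other cell types are given beside this HSC comparison, with their genes called by limma, beside 9.45% of all 12765 genes at 1 probe set a gene. The mean level of 19 replication and division genes was 10.26 to 10.61 in hypomorph HSC, against 9.03 and 9.08 in wildtype HSC, and 12 of 19 rose. The 5 mast cell and basophil markers were at 7.58 to 8.31, against 4.45 and 5.02 in wildtype HSC, and all 5 rose. Granulocyte-monocyte markers were at 9.15 to 9.59, against 7.77 and 8.38, with 2 of 7 rising and none falling; Prtn3 was at 10.15 to 10.39 in hypomorph HSC, against 10.29 and 10.62 in wildtype HSC. Erythroid markers were at 6.63 to 7.0, against 5.93 and 6.02, with 2 of 5 rising and none falling. In the other direction, B lineage markers were at 4.53 to 4.73, against 5.08 and 5.11, with 1 of 9 falling. Megakaryocyte markers were at 7.53 to 7.77, against 7.83 and 8.21, with 1 of 5 falling, and none was called higher in either list. The megakaryocyte markers were mixed: Ppbp was at 4.98 to 5.09 in hypomorph HSC, against 7.71 and 6.11 in wildtype HSC. Gp1bb was higher, at 6.72 to 7.63, against 6.53 and 5.82, and Pf4, Itga2b and Vwf overlapped. The stem cell markers overlapped, at 9.95 to 10.47 in hypomorph HSC and 10.35 and 10.55 in wildtype HSC, with 1 of 7 rising and 1 falling. Neutrophil markers overlapped too, at 7.48 to 8.63 in hypomorph HSC and 6.28 and 7.59 in wildtype HSC. So did macrophage and stroma markers, at 4.07 to 4.22 in hypomorph HSC and 3.97 and 4.38 in wildtype HSC. T and NK markers had mean levels of 3.78 to 3.88, against 3.92 and 3.93, below 4.64, although Cd3e was at 5.30 to 5.42 on the HSC arrays. Of these last 3 lists 6, 4 and 1 genes were tested. None was called by limma, and 0, 2 and 0 had an unadjusted p under 0.05. The part of any list in the Zbtb38 difference was not tested. Between MP genotypes 1 of 5 mast cell and basophil and 1 of 4 macrophage and stroma markers were called higher by limma. No marker of the other lists was called there, beside 0.494% of all genes. Neutrophil markers were at 7.05 to 8.35 in hypomorph MP, against 6.33 to 6.73 in wildtype MP. The part of these lists in any MP difference was not tested.

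**Figure D4:**
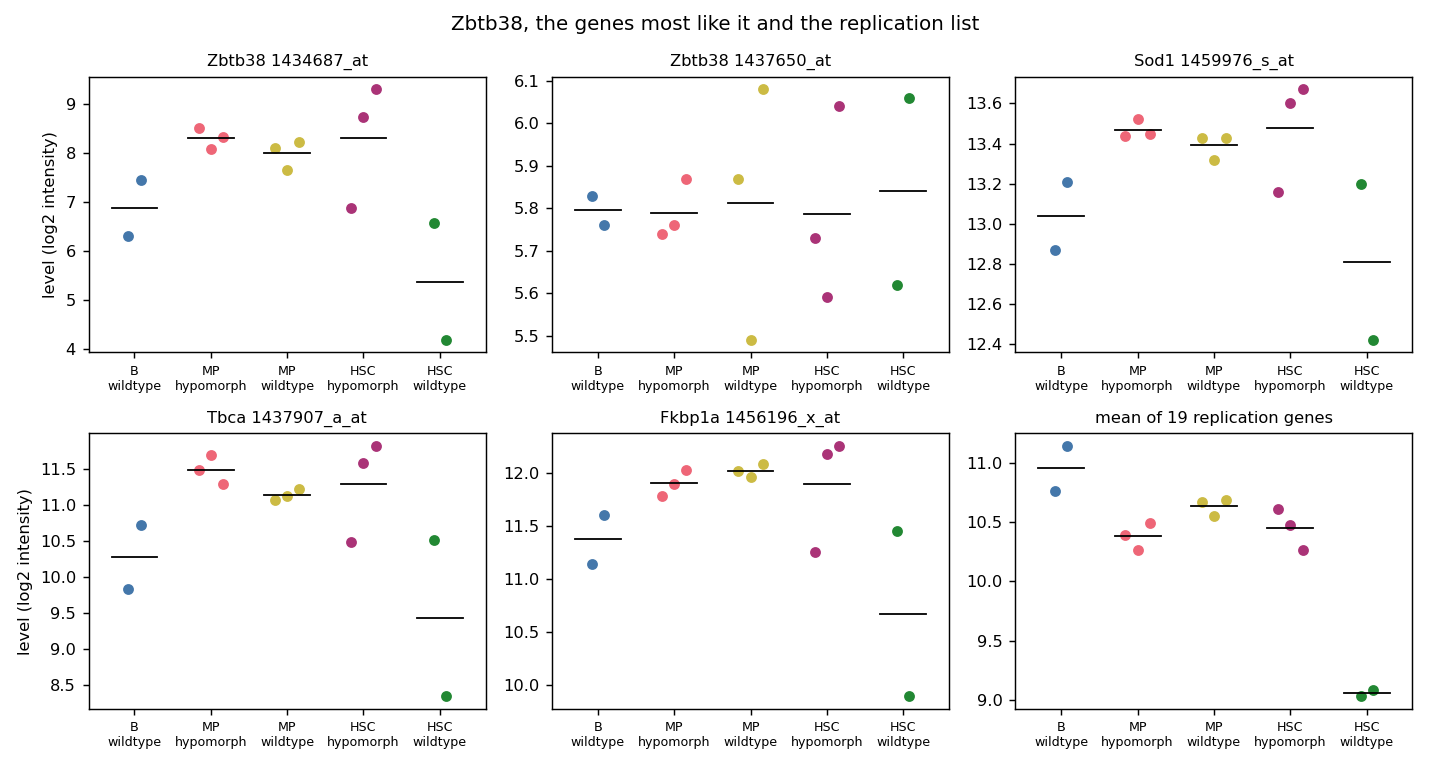
Level (log2 intensity) on each array of both tested Zbtb38 probe sets, of the 3 probe sets most like 1434687_at, and of the mean of 19 replication genes, with a bar at each group mean. Zbtb38 1434687_at spans 6.87 to 9.29 in hypomorph HSC and 4.18 to 6.56 in wildtype HSC, whereas 1437650_at stays between 5.49 and 6.08 on all arrays.

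Between wildtype MP and wildtype HSC, Zbtb38 and Mbd4 were each higher in MP at 1 probe set, and no other member probe set was called. These were 2 of 19 probe sets (10.5%), beside 26.8% of all. The median difference was 0.32, beside -0.08 over all probe sets. At Zbtb38 1434687_at all 3 MP arrays (7.65 to 8.21) were above both HSC arrays (4.18 and 6.56), with a difference of 2.62 (SE 0.68, adjusted p 0.0125). Without wildtype HSC array 2 it was 1.43 (adjusted p 0.194). The other tested Zbtb38 probe set, 1437650_at, differed by -0.03 (SE 0.23). This comparison and the HSC genotype comparison share the wildtype HSC arrays. In the hypomorphs the MP minus HSC difference of Zbtb38 was 0.00 (SE 0.61, 95% interval -1.32 to 1.32).

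Mbd4 1441079_at was at 6.15 to 6.61 in wildtype MP, against 5.26 and 5.64 in wildtype HSC, a difference of 0.86 (SE 0.29, adjusted p 0.0422). The call was lost when any of 8 of the 13 arrays was left out (adjusted p up to 0.237, without wildtype HSC array 2). The other Mbd4 probe sets differed by -0.14 and 0.36. Between hypomorph MP and hypomorph HSC no member was called, beside 8.41% of all probe sets, and 3 had an unadjusted p under 0.05. Those were both Tet2 probe sets (0.95 and 0.47, adjusted p 0.19 and 0.222) and Mbd4 1457708_at (0.77, adjusted p 0.184).

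B progenitors had higher Mbd2 levels than HSC at both Mbd2 probe sets. At Mbd2 1417165_at they had 9.52 and 9.80, above all MP arrays (8.85 to 9.06) and all HSC arrays (8.33 to 8.86). The difference was 1.09 against wildtype HSC (SE 0.22, adjusted p 0.00124), called whichever single array was left out, and 0.75 against wildtype MP (SE 0.20, adjusted p 0.0103). The MP call was lost without B array 2 (0.61, adjusted p 0.0791). Mbd2 1425803_a_at was at 5.71 and 6.46 in B progenitors, against 4.28 and 4.63 in wildtype HSC, a difference of 1.63 (SE 0.44, adjusted p 0.00901). Both of these HSC arrays lay below 4.64, and against that level B progenitors were higher by 1.45. Without B array 2 the measured difference was 1.26 (adjusted p 0.0911), and without wildtype HSC array 1 it was 1.46 (adjusted p 0.057). Against wildtype MP it differed by 0.84 (adjusted p 0.132).

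Tet1 1419896_at was at 5.39 and 5.25 in B progenitors, against 4.15 to 4.42 in wildtype MP and 3.83 and 4.39 in wildtype HSC. B progenitors were above every other array. This probe set reached 4.64 on 3 arrays, 2 of them B, so it was tested through the group in which it is high, and its calls are a description. All wildtype MP and HSC arrays were below 4.64, and against that level B progenitors were higher by 0.68. The measured difference was 1.01 against wildtype MP (SE 0.28, adjusted p 0.0129) and 1.21 against wildtype HSC (SE 0.31, adjusted p 0.00629). The first call was lost without B array 1 (0.94, adjusted p 0.0884), the second without wildtype HSC array 1 (0.93, adjusted p 0.061). Tet1 1429448_s_at differed by 0.97 and 0.93 in these comparisons (adjusted p 0.0622 and 0.0844), and 1455425_at by -1.17 and 0.08.

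Against wildtype HSC, 3 of 19 member probe sets were called in B progenitors (15.8%), all higher and Tet1 1419896_at among them, beside 41.4% of all probe sets. Against wildtype MP the count was 5 (26.3%), 3 higher, that Tet1 probe set included, and 2 lower, beside 33.4% of all. With each array centred on its median, these counts were 6 higher and 0 lower against HSC, and 5 higher and 1 lower against MP. Calls over all probe sets were common in every alternative that keeps all arrays. They ran from 5751 to 9811 against HSC and from 4580 to 8373 against MP. The median difference over members was 0.25 against HSC, beside -0.14 over all probe sets, and 0.16 against MP, beside -0.08. Both comparisons use the same B arrays.

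Tet2 fell in B progenitors relative to MP at 1 of its 2 probe sets. At 1438781_at B progenitors had 5.55 and 6.33, against 7.49, 7.05 and 7.52 in wildtype MP, a difference of -1.41 (SE 0.45, adjusted p 0.0258). Without B array 1 it was -1.03 (adjusted p 0.236), and it was also lost without MP array 1 or 3. At 1455300_at the difference was -0.48 (SE 0.23, adjusted p 0.135).

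Tet3 had 5.49 and 4.66 in B progenitors, against 4.26, 4.51 and 3.98 in wildtype MP. All 3 of these MP arrays lay below 4.64, and against that level B progenitors were higher by 0.43. Its difference was 0.82 (SE 0.26, adjusted p 0.0264), and without B array 1 it was 0.41 (adjusted p 0.34). Removal of MP array 1 or 3 also ended this call, as did a fit of only the arrays compared (adjusted p 0.0577). Mbd1 1417968_a_at had 8.97 and 9.11 in B progenitors, against 9.45 to 9.99 in wildtype MP. That difference was -0.68 (SE 0.22, adjusted p 0.0317). It was -0.47 and not called with centred arrays (adjusted p 0.126), -0.03 with the 5 Mbd1 probe sets averaged (adjusted p 0.919), and not called without MP array 1 or 3 or either B array.

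**Figure D5:**
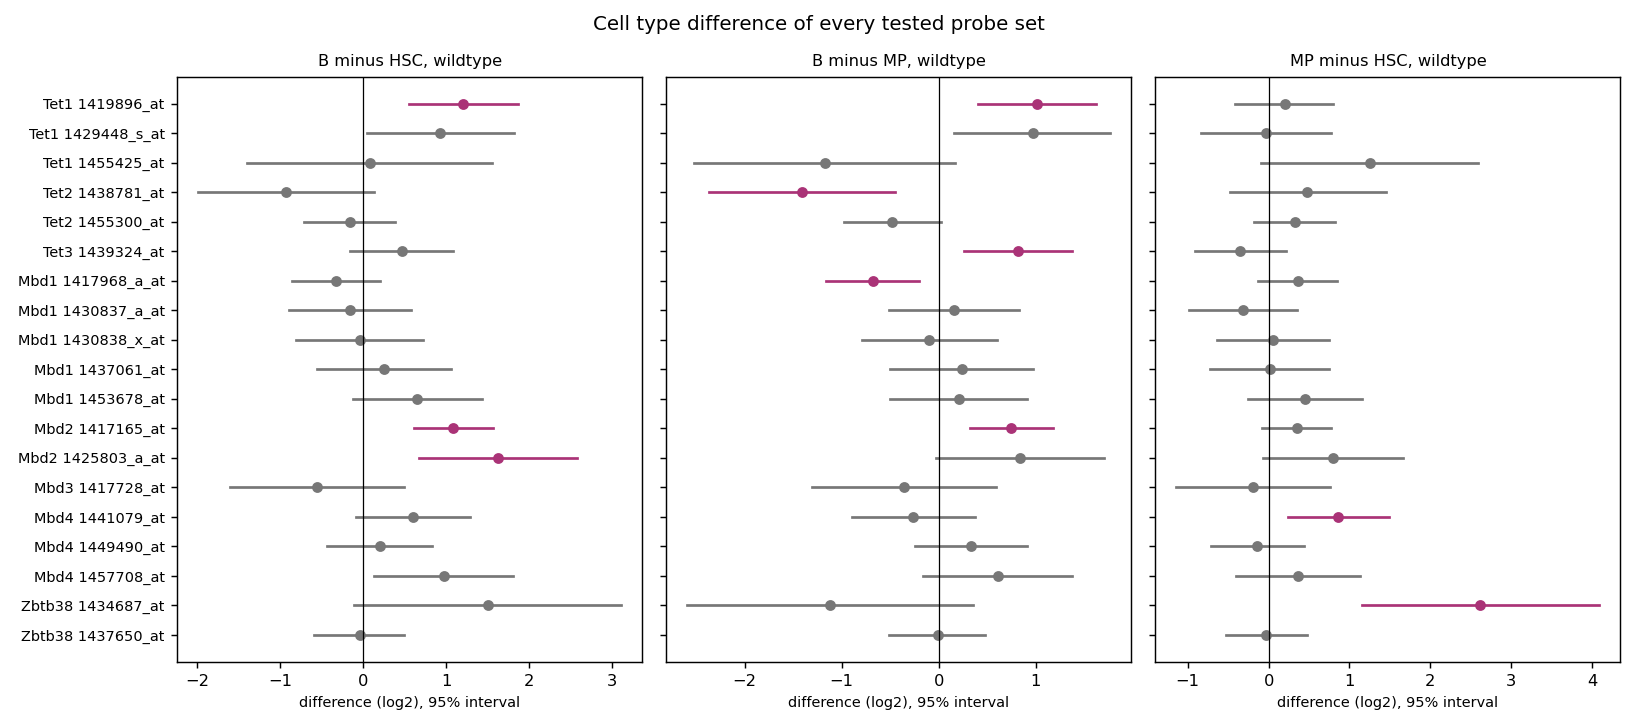
Difference between wildtype cell types (log2) with its 95% interval for each of the 19 tested probe sets: B progenitors minus HSC, B progenitors minus MP and MP minus HSC. Purple is called and grey is not; Mbd2 and Tet1 1419896_at lie above 0 in both B panels, Tet2 1438781_at (-1.41) and Mbd1 1417968_a_at (-0.68) below 0 against MP, and Zbtb38 1434687_at (2.62) stands furthest out in the MP minus HSC panel.

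Ordered by mean level over the 5 groups, Mbd2 1417165_at was highest in B progenitors (9.66), then hypomorph MP (9.02), wildtype MP (8.91), hypomorph HSC (8.82) and wildtype HSC (8.57). Of these steps only the one from B progenitors to hypomorph MP was free of overlap or contact between the arrays. Zbtb38 1434687_at was highest in both hypomorph groups (8.30 each), followed by wildtype MP (7.99), B progenitors (6.87) and wildtype HSC (5.37), and the B progenitor arrays (6.30 and 7.44) overlapped wildtype HSC. Tet1 1455425_at had its highest mean in wildtype MP (7.95) and its lowest in hypomorph MP (5.88), with B progenitors (6.78), wildtype HSC (6.70) and hypomorph HSC (6.55) between. Tet2 1438781_at ran from wildtype MP (7.35), hypomorph MP (7.24), wildtype HSC (6.87) and hypomorph HSC (6.28) to B progenitors (5.94).

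Other genes of the pathway were counted with 1 probe set a gene, the brightest, where 9.45% of 12765 genes were called in HSC and 0.494% in MP. Among 7 genes that write or maintain methylation, 6 were tested, and in hypomorph HSC 2 rose and 1 fell, with a median difference of 0.14. The fall was that of Dnmt1 (-2.75). Uhrf1, which brings Dnmt1 to newly replicated DNA, rose by 2.29 (SE 0.35, adjusted p 0.00196), and Hells, a remodeller needed for normal methylation, rose by 2.12 (SE 0.23, adjusted p 0.000201). In MP the median was -0.31 and Dnmt1 alone was called, and Uhrf2 differed by -1.14 (adjusted p 0.165). Uhrf1 was not called in a fit of the HSC arrays alone (adjusted p 0.0977), and without wildtype HSC array 2 it rose by 1.48.

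Of 9 further methyl-CpG readers and relatives, 7 were tested, 1 rose and 0 fell in hypomorph HSC, with a median of -0.09. The 1 was Zbtb33, the Kaiso repressor and a relative of Zbtb38, at a mean of 9.36 in hypomorph HSC, against 8.45 in wildtype HSC (difference 0.91, SE 0.26, adjusted p 0.0435). The call was lost when any of 9 of the 13 arrays was left out (adjusted p up to 0.145). In MP the median was -0.32, 0 were called by limma, 0 had an unadjusted p under 0.05, and the smallest p was that of Baz2b (-0.55, adjusted p 0.392).

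Base excision repair, the step after Tdg, had 14 of 15 genes tested, with 2 rising and 0 falling in hypomorph HSC and a median of 0.30, beside -0.11 over all genes. They were Ung, which removes uracil (1.90, SE 0.36, adjusted p 0.00671), and Parp1, which senses strand breaks (1.44, SE 0.34, adjusted p 0.0208). Without wildtype HSC array 2 neither was called (1.10 and 0.97, adjusted p 0.0603 and 0.248). Parp1 was also lost without hypomorph HSC array 2 (1.33, adjusted p 0.0779) and with its probe sets averaged (0.52, adjusted p 0.157). In MP the median was -0.02, 0 were called by limma, 0 had an unadjusted p under 0.05, and Lig3 had the smallest p (-0.38, adjusted p 0.446).

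No call was made between genotypes in the lists of deaminases and Gadd45 genes (6 tested of 7), Tet cofactor enzymes and partners (10 of 13) or NuRD partners of Mbd2 and Mbd3 (12 of 12), in either cell type. By limma, 2, 2 and 1 of their genes had an unadjusted p under 0.05 in HSC, and 1, 2 and 0 in MP, with medians of -0.11, -0.32 and 0.14 in HSC and 0.20, -0.09 and -0.02 in MP. Closest to the threshold were Apobec1, a cytidine deaminase, in HSC (-0.65, adjusted p 0.0504) and Gadd45b, a stress gene tied to repair-based demethylation, in MP (1.20, adjusted p 0.0544). Gadd45b was called for the difference of the HSC and MP effects (-1.85, SE 0.37, adjusted p 0.0175), the only gene of these 3 lists that was. That call was lost without hypomorph HSC array 2, wildtype HSC array 2, hypomorph MP array 2 or wildtype MP array 1 (adjusted p 0.0513 to 0.0739). Over all genes 4.65% were called for this difference. Idh3a, of the enzyme that makes the Tet cosubstrate 2-oxoglutarate, differed by 1.17 in HSC (adjusted p 0.0629). Ogt, a partner of Tet2 and Tet3, differed by -1.05 in MP (adjusted p 0.253), Hdac2 by 0.66 in HSC (adjusted p 0.102) and Mta3 by -0.56 in MP (adjusted p 0.399).

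Beside these stands the replication and division list, of which 12 of 19 genes rose and 0 fell in hypomorph HSC, with a median of 1.15. Ccne2, a cyclin of the entry into S phase, had a mean of 7.71 in hypomorph HSC and 3.94 in wildtype HSC, where both arrays lay below 4.64, so it rose by at least 3.07 when set against that level (measured difference 3.76, adjusted p 5.54e-05). Bub1, a mitotic checkpoint kinase, rose by 2.74 (SE 0.35, adjusted p 0.000673). In MP the median was -0.25, 0 of 19 were called by limma and 2 had an unadjusted p under 0.05. Between wildtype MP and wildtype HSC 15 of 19 were higher in MP, beside 29.3% of all genes called. Uhrf1 had a mean of 11.03 in hypomorph MP and 11.03 in hypomorph HSC, and Zbtb38 1434687_at had 8.30 in both. In B progenitors the replication list had its highest mean (10.95, against 10.63 in wildtype MP). Zbtb38 1434687_at was lower there (6.87, against 7.99 in wildtype MP). A link between Zbtb38 and this list was not tested.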

How the data were processed

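RNA of 35000 to 100000 sorted cells was hybridised to arrays of 45101 probe sets, and the authors deposited RMA values (version not given in the sources used here), per the submitters' processing notes. The deposited values run from 1.93 to 14.99 and are read as log2 intensities, a base taken from this range and not stated. The table has 24 columns, 13 of a normalization of all arrays, used here, and 11 of a second one of the HSC and MP arrays, which served as an alternative and never as further replicates. Array medians ran from 4.56 to 4.74, and the number of arrays limits the precision. Detection calls were not used.

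Probe sets were named from the platform's annotation: 34958 had 1 symbol, 932 several and 9211 none. Entrez identifiers found a current symbol for 34754 of them, and 0 differed. A probe set was tested when at least 2 arrays reached 4.64. limma 3.58.1 in R 4.3.3 fitted 5 group means (8 residual degrees of freedom) for 7 comparisons, with Benjamini-Hochberg adjustment in each, after the script had been tested on simulated data. SD are over arrays and SE are those of limma. The unit of the main test is the probe set; 1 value a gene was an alternative.

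The members and gene lists were chosen with earlier results of these data known. Every member is reported. Values by array are given for probe sets called in any comparison or differing by at least 1 between genotypes, with the 3 most similar probe sets (Pearson r over 13 arrays) for those called between genotypes. Lists are given by counts, medians and up to 2 called genes with the largest change, or else the gene with the smallest p. Hells, the difference of effects of list genes and the values for probe sets whose arrays did not overlap were added after their values were seen. For arrays of a cell type with the same replicate number, the correlation of their deviations was -0.17 and -0.02 in HSC and -0.05, 0.27 and 0.15 in MP. With deviations from means of 2 or 3 arrays this cannot exclude pairing by number. HSC and MP arrays of the same number were not compared.

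Alternatives were the second normalization, a block for the replicate number, a fit of only the arrays compared, other priors (trended, robust), array weights, other filters (none, or the 75th percentile, 7.1), centring of arrays on their median, gene-level values (highest or mean probe set), exclusion of probe sets marked s, x or a, and leaving out single arrays.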

Additional observations from a re-analysis of the deposited data

Results flagged for a closer look

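Each value here is a difference between the genotype effects in HSC and in MP that the limma interaction test called. It was 1.97 for Uhrf1 (SE 0.47, adjusted p 0.0361) and 2.32 for Hells (SE 0.30, adjusted p 0.0024). The Uhrf1 call was lost without any of 7 of the 13 arrays, and without wildtype HSC array 2 the value was 1.16 (adjusted p 0.0854). For Gadd45b it was -1.85 (SE 0.37, adjusted p 0.0175). For Bub1 it was 3.45 (SE 0.47, adjusted p 0.00273), and for Ccne2 4.30 (SE 0.45, adjusted p 0.00065), with the wildtype HSC arrays of Ccne2 below 4.64. Member probe sets gave no called difference of this kind.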

How the results depend on the processing

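The count of member probe sets called changed as follows. Between hypomorph and wildtype HSC it was 1, 0 with only the arrays compared, and 0 to 1 when an array was left out. Between hypomorph and wildtype MP it was 0, 3 with array weights (fitted gene by gene), and 0 for every array left out. For the difference of the effects it was 0, 3 with array weights, and 0 to 1 with an array left out. Calls over all probe sets for that difference numbered 970, and reached 5128 in the alternatives that keep all arrays. Between wildtype MP and wildtype HSC the member count was 2. It was 1 each with the replicate block, array weights and the filter at the 75th percentile (8 members tested). It was also 1 with 1 value a gene by the highest or mean probe set (8 genes). With an array left out it was 0 to 3. Between hypomorph MP and hypomorph HSC the member count was 0, 4 with array weights, and 0 with any array left out. Over all probe sets 1860 were called there, and up to 7121 in the alternatives that keep all arrays. Between B progenitors and wildtype HSC the member count was 3, then 6 with centred arrays, 1 with the filter at the 75th percentile and 1 with either gene-level value. It was 3 to 5 with an array left out. Over all probe sets 9161 were called there, and 5751 to 9811 in the alternatives that keep all arrays. Between B progenitors and wildtype MP the member count was 5, 3 with the mean of probe sets, and 1 to 7 with an array left out. No value changed sign. Under fewer samples or a smaller table the loss follows partly from the construction; otherwise the cause was not tested. Calls over all probe sets between HSC genotypes numbered 1938, but 77 with only the HSC arrays and 631 without wildtype HSC array 2; between MP genotypes they numbered 100, but 6513 with array weights, 233 with only the arrays compared, 60 with the replicate block and 35 to 181 with an array left out. With the replicate block, Zbtb38 1434687_at differed by 2.72 in HSC (limma adjusted p 0.0494). Under that block Mbd4 1441079_at in MP against HSC (adjusted p 0.0905) and Mbd1 1417968_a_at in B against MP (0.0532) were not called. Nor were Zbtb33 (0.108) and Parp1 (0.0553) called between HSC genotypes. Whether the replicate numbers pair the arrays could not be settled. Zbtb33 was also not called in the second normalization (0.77, adjusted p 0.1) or in a fit of only the HSC arrays (adjusted p 0.174), which also ended the calls of Ung (0.137), Parp1 (0.197) and Bub1 (0.0521). The Uhrf1 difference of effects was not called in the second normalization (1.94, adjusted p 0.05), with the replicate block (1.92, 0.0628) or with no filter (1.97, 0.0505).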

Other observations

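The 3 probe sets annotated to Tdg and its pseudogenes could not be assigned to 1 gene and were not tested. At 1416790_a_at the levels were 10.36, 10.93 and 11.01 in hypomorph HSC, against 10.13 and 9.27 in wildtype HSC. MP had 11.15, 11.34 and 11.32 in hypomorphs, against 11.36, 11.20 and 11.33 in wildtype, and B progenitors had 11.50 and 11.55. At 1435715_x_at hypomorph MP had 11.05 to 11.25, against 11.18 to 11.35 in wildtype MP, and hypomorph HSC had 10.77 to 11.02, against 10.04 and 10.26 in wildtype HSC. At 1448462_at hypomorph MP had 9.50, 9.38 and 9.60, against 10.17, 9.87 and 10.12 in wildtype MP, and hypomorph HSC had 8.79 to 10.20, against 8.34 and 9.04 in wildtype HSC. The genotypes do not overlap in HSC at the first and second of these and overlap at the third, where they do not overlap in MP. With so few arrays a group this can arise by chance, and no genotype effect on Tdg was tested.

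Zbtb33, which with Zbtb38 belongs to the zinc finger readers, was also higher in wildtype MP than in wildtype HSC (1.17, limma adjusted p 0.00446) and in B progenitors than in wildtype HSC (1.29, limma adjusted p 0.0022). The difference between its HSC and MP genotype effects was 1.23 and not called (limma adjusted p 0.06). Zbtb4, from the same list of further readers, went the other way in wildtype MP (-1.44 against wildtype HSC, limma adjusted p 0.00277). In B progenitors Zbtb4 differed by -0.15 and Zbtb38 1434687_at by 1.5 from wildtype HSC, neither called (limma adjusted p 0.749 and 0.128). Calls were common here: 29.3% of all genes for MP and 41.4% of all probe sets for B progenitors. Both comparisons use the same wildtype HSC arrays.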
